A study of Mus musculus with 3 samples.

Results

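Isoforms that the GENCODE M21 annotation classes as targets of nonsense-mediated decay (NMD) were measured in RNA bound to chromatin. The members are the transcripts whose deposited identifier carries the biotype nonsense_mediated_decay: 7186 of 141767 annotated transcripts, all found in both sets of deposited transcript tables. They belong to 4576 genes, of which 4491 also have an isoform of the biotype protein_coding, called coding isoforms here. The libraries came from C57BL/6J mouse macrophages, grown from bone marrow and treated with lipid A, a ligand of Toll-like receptor 4 (TLR4), at 100 ng/ml for 120 min. RNA of the chromatin fraction was depleted of ribosomal RNA and sequenced as 3 libraries, numbered as biological replicates 1 to 3. All 3 carry the same treatment and the same donor label, so there is 1 group, no untreated control and no other cell fraction, and NMD isoforms were compared with other isoforms of the same genes within each library. Nothing in the labels says that the replicates are separate cultures or animals, so p-values measure only the spread between these libraries, which may be technical. Sex and age were not collected, per the labels.

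NMD is a surveillance pathway that degrades messenger RNAs in which translation ends too early. A stop codon that lies well upstream of the last exon junction leaves an exon junction complex in place behind the stopped ribosome, and UPF1, the SMG proteins and decapping and cleavage enzymes then act on the message. Because it needs a translating ribosome, NMD acts mainly in the cytoplasm, and RNA still on chromatin has largely not yet met it. Genes of many splicing regulators, the SR proteins foremost, carry conserved "poison" exons whose inclusion adds such a stop codon and lowers the protein's own output.

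The annotation assigns this biotype by the position of the stop codon, so the following describes what was chosen. A stop codon was annotated in 7184 isoforms, and in 7150 of them it lies at least 50 nt upstream of the last exon junction, with a median distance of 334 nt. TGA ended 57.9% of these reading frames, TAA 22.5% and TAG 19.7%. Compared with the coding isoforms of its gene, an isoform was placed in the first structure class that applied. In 437 isoforms an exon spans a whole intron of a coding isoform (intron kept), in 1881 there is an internal exon that overlaps no coding exon (extra exon), and in 2505 an internal coding exon is spliced out (exon skipped). Of those left, 2159 differ by another splice junction, 109 share all their introns with coding isoforms, and 95 belong to genes with no coding isoform. An exon skipped in an NMD isoform may be skipped in a coding isoform too. More than these 109 may thus share all their introns with coding isoforms. In 1378 isoforms of the extra-exon class the stop codon lies in the extra exon itself, which had a median length of 117 nt, and the length of that exon was not a multiple of 3 in 881 of them.

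The stop codons of SR protein genes are shown first, since they include the poison exons after which this class of isoform is best known. Each sequence is the last 27 bases of the annotated reading frame, 5′ to 3′ on the transcript's strand, read from the GENCODE M21 transcripts, with the stop codon in capitals.
Tra2a-202: aaattgaacagaagattggtcagaTAG
Srsf3-201: atcatgtctcttctcaccaccctcTGA
Srsf4-204: acccggttgtctcatgccccagctTAG
Srsf6-201: atgacgacagcagccttttgccatTAG
Tra2b-206: gagtatttgaagctcaggaataagTGA
The stop codons of Tra2a-202 (mm10 chr6:49252965-49252967, minus strand), Srsf3-201 (chr17:29039485-29039487, plus strand) and Tra2b-206 (chr16:22259181-22259183, minus strand) all lie within extra exons, of 306, 456 and 276 nt. In Srsf4-204 the stop codon (chr4:131884388-131884390, plus strand) precedes an internal extra exon of 184 nt. The same stop codon lies inside an extra exon of 207 nt in another NMD isoform, Srsf4-203 (chr4:131884276-131884482), and Srsf4-204 starts within that stretch, at 131884295. In Srsf6-201 (chr2:162932964-162932966, plus strand) the stop codon lies in sequence that is also exonic in a coding isoform.

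The second set belongs to the genes whose NMD isoforms were most abundant, and its isoforms fall in different structure classes. Which feature gave rise to each stop codon was not examined. Mx1-205 skips an exon, and Mx1-203, of the extra-exon class, has the same stop codon.
Mx1-205: tgtagatggtccaaactgccttcgTAA
Gbp5-202: accaggaaggtggctggttgtctgTAG
Ddx5-208: gatgtggcctccagagggctaggtTAG
Rsad2-202: gagtggcatacagtgctggtcactTAG
Oasl2-205: cagcaccggcaatctacgagactcTGA
Lilr4b-204: aacattcagatgctatggcttcttTAG
Samhd1-204: aacacagtctcggagtggggtaccTAG
The stop codons of Gbp5-202 (chr3:142518642-142518644, plus strand) and Rsad2-202 (chr12:26452355-26452357, minus strand) lie in extra exons of 940 and 435 nt. That of Ddx5-208 (chr11:106783954-106783956, minus strand) lies in a kept intron. Those of Mx1-205 (chr16:97451528-97451530, minus strand), Oasl2-205 (chr5:114901288-114901290, plus strand) and Lilr4b-204 (chr10:51481811-51481813, plus strand) lie in coding exons, in isoforms that skip an exon. Samhd1-204 keeps an intron, and its stop codon (chr2:157121933-157121935, minus strand) also lies in a coding exon.

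Depth was similar in the 3 libraries, at 19745213, 20367100 and 21976577 expected counts (read totals shared out among transcripts, which need not be whole) in replicates 1, 2 and 3. The cells' label held at the marker level: the 8 macrophage markers had mean TPM (a level per length, scaled to the same total in each library) of 5.54 to 334, while 4 of 6 T and NK cell markers and 2 of 5 neutrophil markers were listed at 0 and the B cell, stromal and endothelial markers reached at most 0.400. Summed over the list, markers of T and NK cells were at 3.69, 13.7 and 2.66 TPM, nearly all from Cd28. Replicate 2 stood apart: the median TPM of 81 ribosomal protein genes was 49.8 there against 13.3 and 13.9 in replicates 1 and 3, and the summed TPM of macrophage markers was 1410 against 442 and 346. The labels give 250 ng of starting RNA for replicate 2, 1 µg for replicate 1 and 500 ng for replicate 3. In a bulk sample, fewer cells with an isoform and less of it per cell cannot be told apart.

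NMD isoforms were a small but measurable part of the chromatin RNA. They held 2.18%, 1.93% and 2.33% of the counts of all annotated transcripts in replicates 1 to 3, against 41.1%, 43.6% and 41.0% for coding and 9.83%, 11.2% and 15.2% for retained_intron isoforms, a noncoding biotype that keeps intron sequence. Their summed TPM was 8760, 8849 and 10542, and was thus highest in replicate 3, as was that of retained_intron isoforms (56654, 72100 and 95865). The summed TPM of coding isoforms was instead highest in replicate 2, at 140591 against 99784 and 117458. That contrast did not hold in the second set of transcript tables the authors deposited, from another quantifier, where coding isoforms summed to 122813, 125907 and 153405 TPM and all 3 classes were highest in replicate 3. Over the 4491 genes with both classes, NMD isoforms made up 21.6%, 18.4% and 22.02% of the NMD and coding TPM, lowest in replicate 2, and 20.7% ± 2.00 on average (SD, n = 3). The share was 26.9%, 25.3% and 29.7% in the other quantifier. The part that the ribosomal protein level of replicate 2 has in this was not tested.

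Most members were at or near the limit of detection. Counts above 0 in every library were listed for 2250 isoforms (31.3%), counts of 0 in every library for 2816 (39.2%), and 875 reached 1 TPM in all 3 libraries. In the tables of the other quantifier, 3487 were above 0 in every library and 2021 were at 0 in every library, and 508 of the 2816 were above 0 in all 3 there. The counts above 0 went furthest among isoforms that keep an intron, of which 55.1% were detected in all libraries, and least far among those that skip an exon, at 24.7%. Exon bases particular to an isoform were scarce. Of the 7186, 3635 have no NMD-only base, an exon base absent from every transcript of the gene outside the NMD class. A total of 4041 have no exon base that is absent from all other transcripts of their gene. Exon junctions were not counted here, and reads across a junction may still identify an isoform. No NMD-only base was present for 78.2% of isoforms with a skipped exon and for 15.7% of those with an extra exon.

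Within genes, NMD isoforms lay far below coding isoforms. For each gene and library the log2 ratio of summed NMD TPM over summed coding TPM was taken after adding 0.1 to both, and the mean over the 3 libraries was tested against 0 with limma in 2536 genes whose 2 classes had a mean summed count of at least 50. The median log2 ratio was −2.58, −2.995 and −2.84 in replicates 1 to 3 (mean −2.81 ± 0.21, SD, n = 3), about 6.99-fold lower. In 1962 genes (77.4% of those tested) the NMD isoforms were lower than the coding isoforms at an adjusted p under 0.05 (limma, Benjamini-Hochberg over all tested genes), and in 105 (4.14%) they were higher. The distribution was wide, with quartiles at −4.44 and −1.32, and 253 genes had a mean above 0. In 377 of the 1962 genes called lower, every NMD isoform was at 0 in all libraries, so that they passed the filter through coding isoforms alone and the ratio there rests on the added 0.1. Among the 2158 tested genes with an NMD count in at least 1 library, 1585 were called lower (73.4%) and 105 higher (4.87%). In the 1542 with a count in every library, 1002 were called lower (65.0%) and the median was −1.70 ± 0.13 (SD, n = 3). With genes at 0 set to a floor of 3 counts per library on their shortest isoform, the median over all tested genes was −2.53 ± 0.19.

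**Figure D1:**
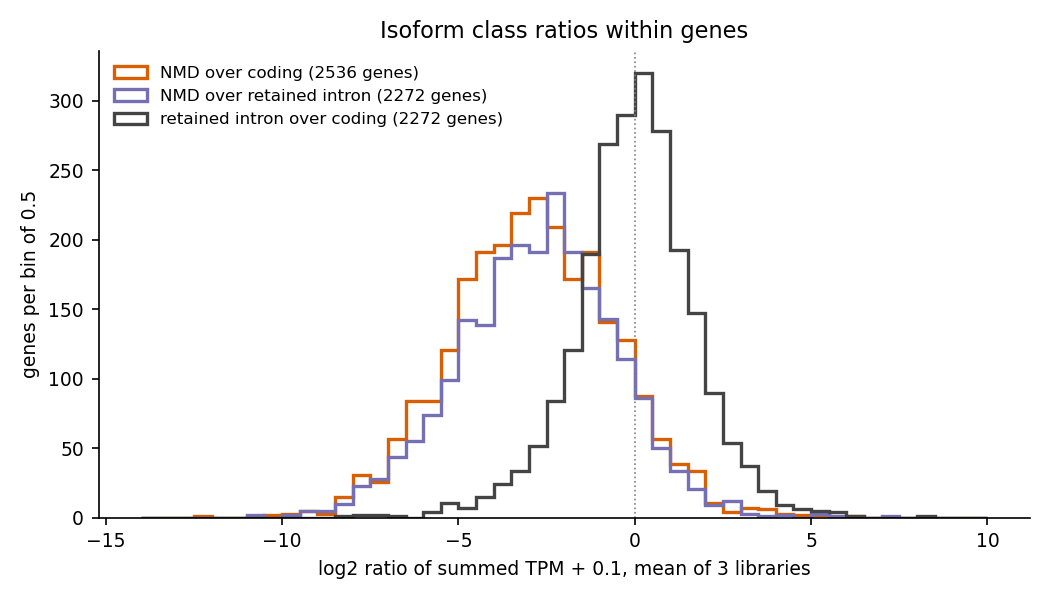
Histogram of the mean log2 ratio of summed TPM + 0.1 over 3 libraries, in bins of 0.5, for NMD over coding isoforms (2536 genes) and for NMD over retained_intron and retained_intron over coding isoforms (2272 genes each). Both NMD curves centre well below 0, with medians of −2.81 and −2.66, while retained_intron over coding centres near 0, at 0.05.

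The comparison with retained_intron isoforms sets the NMD isoforms against another class of isoform of the same genes. On chromatin, reads of introns not yet removed cannot be told apart from those of retained_intron isoforms. In 2272 genes with all 3 classes, NMD isoforms were lower than retained_intron isoforms in 1706 (75.1%) and higher in 69 (3.04%), with a median log2 ratio of −2.66 ± 0.40 (SD, n = 3). The ratio moved with the library, from −2.25 in replicate 1 to −3.05 in replicate 3, the library richest in retained_intron TPM. Retained_intron isoforms themselves were higher than coding isoforms in 570 of these genes (25.1%) and lower in 546 (24%), with a median of 0.05 ± 0.30. The 2 directions were thus called about equally often there, while in the other quantifier retained_intron isoforms were higher than coding isoforms in 1134 of 2745 genes (41.3%) and lower in 687 (25%), with a median of 0.39 ± 0.29. NMD isoforms were lower than retained_intron isoforms in 1943 of these 2745 genes (70.8%) and higher in 183 (6.67%) in the other quantifier. Without replicate 2 the count higher than retained_intron isoforms was 44.

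How the reads of a gene are divided among near-identical isoforms is decided by the quantifier. In the other quantifier's tables the NMD over coding ratio was higher in 338 of 3112 tested genes (10.9%) and lower in 2068 (66.5%), and the median was −1.82 ± 0.10. The direction held for most calls: of the 105 genes called higher, 92 had a ratio above 0 in the other tables and 78 were called higher there too, while 5 were called lower. Of the 1962 called lower, 1800 had a ratio below 0, 1563 were called lower and 47 were called higher. Among 894 NMD isoforms with a mean count of at least 50, the 2 quantifiers lay within 2-fold of each other for 80.5% of the 370 with at least 100 NMD-only bases, 71.1% of the 187 with 1 to 99 and 73.3% of the 337 with none. The 78 genes called higher in both were 78 of the 338 called in the other tables, of which 218 had been tested in the first. Without replicate 1 the count called higher was 68 in place of 105.

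**Figure D2:**
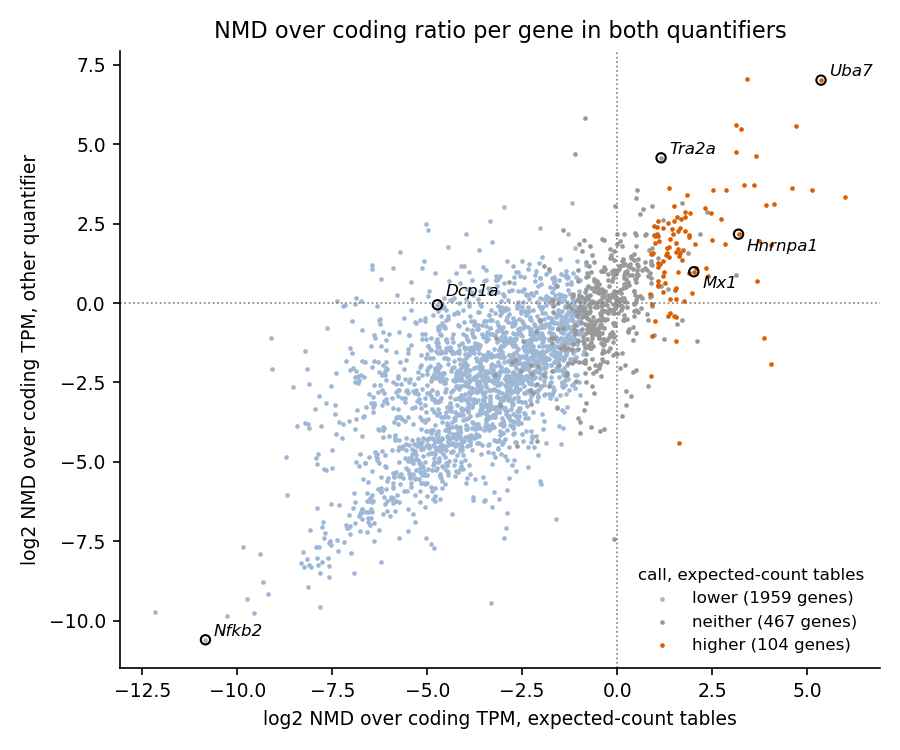
Mean log2 NMD over coding TPM ratio of 2530 genes in the expected-count tables (horizontal axis) and in the other quantifier's tables (vertical axis), coloured by the call in the expected-count tables: 104 higher, 1959 lower, 467 neither. Most points share their sign, Uba7, Hnrnpa1 and Mx1 lie above 0 on both axes, and Dcp1a, at −4.73 and −0.05, is an example of a gene placed differently.

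Structure went with level. For each isoform in a tested gene, its own TPM was set over the gene's coding TPM. Isoforms that keep an intron were nearest to the coding level, with a median log2 ratio of −1.72 ± 0.17 (SD over 3 libraries, 269 isoforms). Those that skip an exon were furthest below it, at −3.97 ± 0.24 (1540 isoforms). Isoforms with an extra exon (−3.55 ± 0.27) and with another splice site (−3.44 ± 0.24) lay between. Of all members, 55.1% with a kept intron had counts in every library, against 24.7% with a skipped exon, 34.2% with an extra exon and 31.9% with another splice site. The lower medians thus rest in part on isoforms at or near 0 and on the added 0.1. Reads of introns not yet removed cannot be told apart from those of kept introns. The other quantifier gave the same outer classes, −1.62 ± 0.17 for kept introns and −3.31 ± 0.17 for skipped exons, but placed the extra-exon isoforms higher, at −1.89 ± 0.14. These are descriptions with no test, since isoforms of 1 gene share reads. Although only 6.08% of the members, isoforms with a kept intron held 11.1%, 12.9% and 14.6% of the NMD TPM in replicates 1 to 3.

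**Figure D3:**
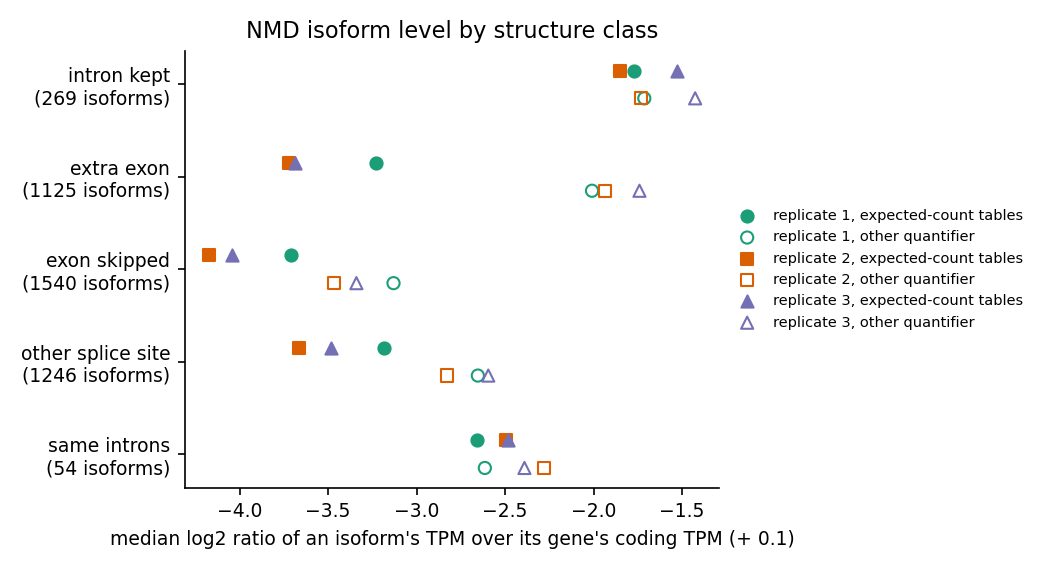
Median log2 ratio of an NMD isoform's TPM over its gene's summed coding TPM, after adding 0.1 to both, by structure class, with 1 symbol per library (filled, expected-count tables; open, other quantifier). Isoforms that keep an intron sit between −1.85 and −1.43 in both quantifiers, and those that skip an exon between −4.17 and −3.13.

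Of the 10 most abundant NMD isoforms, 7 came from 6 genes of the interferon response list, which holds 31 of all 7186 members (0.431%). The 10 with the highest mean TPM held 21.5%, 23.5% and 27.8% of all NMD TPM in replicates 1 to 3 in the expected-count tables. Mx1 encodes an interferon-induced antiviral GTPase that is truncated by a deletion in C57BL/6 and most other inbred strains, and its isoforms alone held 11.6% ± 1.09. Mx1-205, which skips an exon, was at 504, 649 and 850 TPM, and Mx1-210, which also skips an exon, at 390, 304 and 443. The other quantifier put Mx1-205 at only 8.40, 12.2 and 15.0 TPM and gave 365, 355 and 500 to Mx1-203, which was at 47.2, 49.9 and 62.5 in the expected-count tables. The division among Mx1 isoforms is thus uncertain. The NMD isoforms summed to 941, 1003 and 1355 TPM in one set of tables and 947, 827 and 1351 in the other. The coding isoform Mx1-201 was at 15.0, 19.3 and 28.6 TPM in the expected-count tables but 385, 422 and 707 in the other quantifier. The coding isoform Mx1-202 went the other way, from 190, 191 and 343 TPM to 6.77, 3.65 and 7.81. Neither Mx1-205 nor Mx1-210 has an NMD-only base.

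Gbp5-202 and Rsad2-202 each have an extra exon that no other class of isoform shares. Mean TPM in the expected-count tables and the other quantifier was 220 and 186 for Gbp5-202, but 196 and 461 for Rsad2-202. Gbp5 encodes a guanylate-binding protein of the innate immune response, and Gbp5-202 was at 201, 206 and 254 TPM, against 195, 258 and 354 for the coding isoforms. NMD and coding isoforms of Gbp5 did not differ beyond the spread (log2 ratio −0.20 ± 0.30 (SE), adjusted p = 0.55, limma). Rsad2 encodes viperin, an antiviral enzyme, and Rsad2-202 was at 106, 170 and 312 TPM against 654, 969 and 1142 for its coding isoform. The 2 ranges did not overlap, and the ratio was lower than 0 at −2.33 ± 0.32 (adjusted p = 0.0021, limma). The other quantifier gave Rsad2-202 270, 408 and 706 TPM and a ratio of −0.29 that was not called (adjusted p = 0.43, limma).

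Ddx5-208, Samhd1-204 and Zup1-207 keep an intron. Ddx5 encodes a DEAD-box RNA helicase that takes part in splicing, and Ddx5-208 was at 149, 213 and 295 TPM, above the coding isoforms (52.7, 90.2 and 77.9) in every library. The log2 ratio of the gene was 1.55 ± 0.31 (SE, adjusted p = 0.0076, limma) but 0.49 in the other quantifier (adjusted p = 0.18, limma), and it rests on the kept intron, since it was −9.49 without isoforms that keep one. Samhd1, which hydrolyses deoxynucleotides and restricts viruses, had 82.0, 102 and 203 TPM in Samhd1-204 and 141, 172 and 303 in coding isoforms, a log2 ratio of −0.70 ± 0.29 that was not called (adjusted p = 0.072, limma) but was called in the other quantifier, at −0.91 (adjusted p = 0.022, limma). An intron that has not yet been removed from a nascent transcript gives the same reads as an annotated kept intron, and these cannot be told apart in chromatin RNA.

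Oasl2-205 and Lilr4b-204 skip an exon and have no base of their own. Oasl2, a relative of the antiviral oligoadenylate synthetases, had 150, 146 and 214 TPM in its NMD isoform and 34.4, 39.01 and 66.7 in its coding isoforms. The NMD isoform was higher in every library, with a log2 ratio of 1.90 ± 0.30 (SE, adjusted p = 0.0032, limma). Lilr4b, an immunoglobulin-like receptor of leukocytes, had 267, 218 and 193 TPM in 2 NMD isoforms and 28.0, 35.7 and 31.2 in coding isoforms, a log2 ratio of 2.83 ± 0.32 (adjusted p = 0.0011, limma). Both were also called higher in the other quantifier, at 0.95 and 1.85. Lilr4b has a close paralog, Lilrb4a, and reads may have been divided between them.

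**Figure D4:**
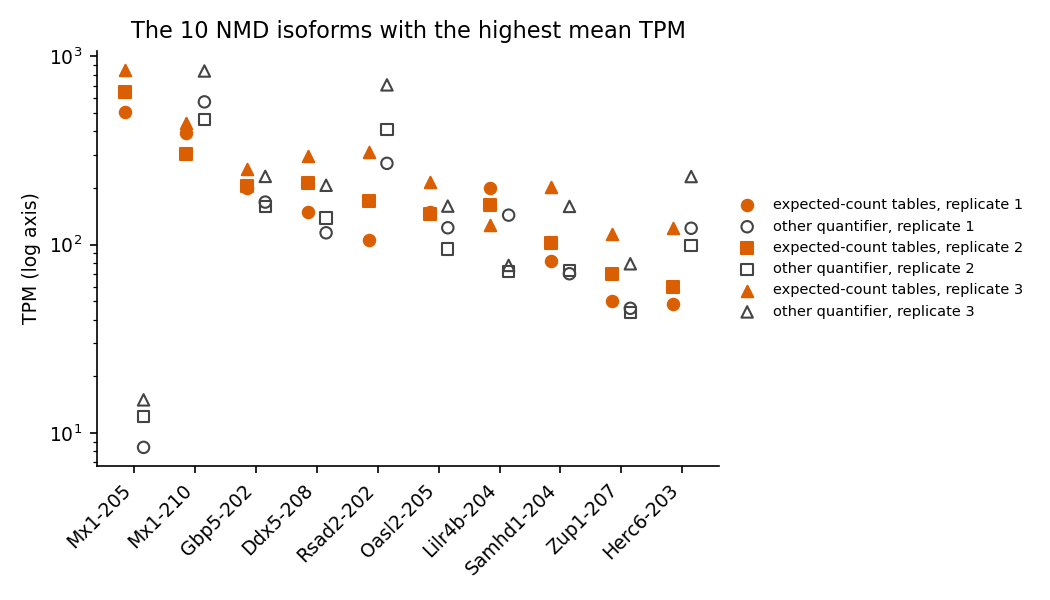
TPM on a log axis of the 10 NMD isoforms with the highest mean TPM in the expected-count tables (filled) and in the other quantifier (open), 1 symbol per library. Mx1-205 is at 504 to 850 TPM in one and at 8.40 to 15.0 in the other, while Gbp5-202, Oasl2-205 and Samhd1-204 lie close together in both.

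The genes with the highest NMD over coding ratio are mostly ones whose coding isoforms were barely detected. Uba7, the activating enzyme for the ubiquitin-like modifier ISG15, lies at chr9:107975505-107984060. Its 2 NMD isoforms were at 18.5, 21.5 and 29.6 TPM in replicates 1 to 3 and its coding isoform at 0.450, 0.690 and 0.290. All NMD values were above all coding values, with a log2 ratio of 5.37 ± 0.41 (SE, adjusted p = 4.0e-04, limma) and 7.02 in the other quantifier. The more abundant one, Uba7-214, keeps an intron and held most of this NMD TPM, while the other, Uba7-211, was at 3.14, 2.64 and 4.44 TPM. Retained_intron isoforms of the gene were higher than its NMD isoforms, at 113, 161 and 224 TPM. Clasrp, an SR-like protein that binds a CLK kinase, had 12.3, 10.6 and 9.07 TPM in 4 NMD isoforms and 0, 0.780 and 0.230 in its coding isoform. Its log2 ratio was 5.12 ± 0.70 (adjusted p = 0.0020, limma), 4.20 without replicate 1, 5.88 without replicate 2 and 3.56 in the other quantifier.

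Polg2, the accessory subunit of the mitochondrial DNA polymerase, had 2.64, 2.57 and 3.81 TPM in NMD isoforms and at most 0.0600 in its coding isoform, with a log2 ratio of 4.71 ± 0.37 (SE, adjusted p = 4.2e-04, limma). Unlike Uba7, its NMD isoforms were also higher than its retained_intron isoforms (3.14 ± 0.75, adjusted p = 0.013, limma). Hspbap1 had 2.09, 3.27 and 3.73 TPM against 0.210, 0.180 and 0.0800, a log2 ratio of 3.61 ± 0.41 (adjusted p = 0.0012, limma), and its NMD isoform holds 3009 bases of its own. Naa16, a subunit of an N-terminal acetyltransferase, and Parp6, an ADP-ribosyltransferase, followed the same pattern, with 5.13 to 7.32 and 3.43 to 4.01 TPM in NMD isoforms and at most 0.690 and 0.320 in coding isoforms. In Parp6 the ratio of 3.92 was 3.31 without replicate 1 and 3.09 in the other quantifier. In Naa16 the ratio of 3.73 was 1.94 in the other quantifier, and 0.91 and not called when counts were not divided by length (adjusted p = 0.11, limma). Chmp4c, a subunit of the ESCRT-III membrane complex, had a ratio of 3.69 that was 0.69 and not called in the other quantifier (adjusted p = 0.071, limma).

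The remaining 3 of the 10 highest genes share their exons with other genes. Of the exon bases of the NMD isoform, 97.2% in Lilrb4a lie in exons of other genes, among them the read-through gene Gm49339, as do 57.3% in Evi2 (Evi2a and Evi2b) and 95.3% in Gm45140 (Isy1 and Rab43). Their NMD isoforms had 10.8 to 31.3, 1.34 to 3.71 and 1.62 to 2.68 TPM. The coding isoform of Evi2 was at 0 in all libraries. At a floor of 3 counts per library, which covers counting error only, the NMD isoform was at least 69.6-fold higher in the expected-count tables. The lower bounds deposited for the TPM of the NMD isoform, at a level not stated, were 0.233, 4.91e-04 and 1.81. The other quantifier gave the coding isoform a mean of 0.0595 TPM against 1.88 for the NMD isoform, a log2 ratio of 3.61. The NMD isoform shares all its introns with the coding isoform and has no NMD-only base. In Lilrb4a and Gm45140 the ratios of 6.01 and 4.04 were 3.33 and 1.83 in the other quantifier. NMD isoforms that have over 20% of their exon bases in another gene were also left out, a setting chosen after seeing the data. There, 94 genes were called higher and 1850 lower. That setting changes which genes are tested, so these counts are not directly comparable with those of the main analysis.

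At the other end, NMD isoforms of some well-expressed genes had little or no count in the expected-count tables, and the other quantifier gave several of them more. Nfkb2, which encodes a subunit precursor of NF-kB, had 198, 192 and 161 TPM in coding isoforms. Its NMD isoform had no count in any library. A floor of 3 counts per library put that isoform at least 3255-fold lower, but the floor covers counting error only. The isoform has no NMD-only base. The upper bounds deposited for its TPM, at a level not stated, were 0.675, 0.687 and 0.498. Ralgapa2, of a complex that regulates Ral GTPases, had 70.1, 64.0 and 51.0 TPM in coding isoforms and 0.360, 0.190 and 0.180 in its NMD isoform, a log2 ratio of −7.52 ± 0.30 (SE, adjusted p = 1.9e-04, limma). Foxp1, a forkhead transcription factor, had 84.2, 67.6 and 87.3 against 0.570, 0.260 and 0.480, and Mapk8ip3, a scaffold of JNK signalling, 52.2, 62.5 and 64.6 against 0.180, 0.360 and 0.510. The coding values are sums over 4 isoforms in Ralgapa2, 20 in Foxp1 and 10 in Mapk8ip3, each set against 1 NMD isoform. Mapk8ip3 gave −7.12 and −7.07 in the 2 quantifiers. Foxp1 and Ralgapa2 were closer to coding in the other quantifier, at −4.26 and −4.64. Ftl1, the ferritin light chain, had 134, 1094 and 66.8 TPM in coding isoforms, highest in replicate 2, and 2.10, 6.76 and 0 in its NMD isoform, and its log2 ratio of −7.55 was −8.35 without replicate 1 and −6.63 without replicate 3. Its NMD isoform had 23.5, 18.2 and 17.5 TPM in the other quantifier, with a ratio of −2.63.

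The SR proteins bind exonic enhancers and recruit the splicing machinery. Of 13 genes on the list, 11 had both classes and all 11 were tested. NMD isoforms were lower than coding isoforms in 9 of 11 (81.8%, against 77.4% of all tested genes) and higher in 0 of 11 by limma (4.14% of all), with a median log2 ratio of −2.79 ± 1.21 beside −2.81 over all genes. The list's median differed between libraries, at −1.54, −2.86 and −3.97 in replicates 1 to 3. At an unadjusted p under 0.05 the count higher was also 0, and in the other quantifier it was 1, Tra2a, with 7 of the 11 lower.

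Tra2a, an SR-like regulator, was the one SR gene with more NMD than coding TPM. Its isoform with the 306-nt poison exon shown above had 30.9, 16.7 and 30.4 TPM, and its coding isoforms 19.8, 14.3 and 4.91. The 2 ranges overlap, although NMD exceeded coding within each library, and the log2 ratio of 1.16 ± 0.55 was not called (SE, adjusted p = 0.11, limma). The other quantifier gave 52.2, 28.6 and 48.1 TPM to the NMD isoform and 2.82, 1.25 and 1.27 to coding isoforms, a called ratio of 4.57 (adjusted p = 1.6e-04, limma). All 306 bases of the poison exon are found in no other Tra2a transcript.

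In Srsf3 the isoform with the 456-nt extra exon had 6.12, 4.41 and 3.75 TPM and the coding isoform 3.98, 8.52 and 10.8. NMD exceeded coding in replicate 1 and was below it in replicates 2 and 3, with a log2 ratio of −0.61 ± 0.50 (SE, adjusted p = 0.30, limma). Srsf6 had 4.42, 3.57 and 2.57 TPM in its NMD isoform and 5.50, 8.67 and 8.51 in coding isoforms, and its ratio of −1.09 ± 0.39 stood at the threshold (adjusted p = 0.0496, limma). It was −0.999 without replicate 2 and −0.78 without replicate 3, neither called, and −0.89 in the other quantifier (adjusted p = 0.082, limma). Srsf4 had 4.62, 4.20 and 5.87 TPM against 12.8, 10.9 and 13.7, without overlap, a ratio of −1.34 ± 0.29 (adjusted p = 0.0095, limma), but the other quantifier placed it at 0.88, on the other side of 0 (adjusted p = 0.10, limma).

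The NMD isoforms of Tra2b had 6.17, 3.08 and 1.42 TPM while its coding isoforms were at 18.2, 17.6 and 20.1, a log2 ratio of −2.59 ± 0.50 (SE, adjusted p = 0.0067, limma). In the remaining 6 genes, Srsf1, Srsf2, Srsf5, Srsf7, Srsf9 and Srsf11, NMD isoforms had 0 to 2.98 TPM and coding isoforms 3.35 to 36.1, and all 6 were called lower in both quantifiers. Srsf7, with a ratio of −2.65, was at −3.51 without replicate 1 and −1.98 without replicate 3, Srsf1 (−3.46) at −4.35 and −2.86, and Srsf5 (−4.77) at −4.17 without replicate 3. In Srsf1, Srsf3, Srsf6, Srsf7, Srsf11 and Tra2b the NMD isoforms were highest in replicate 1 and lowest in replicate 3. The same order was found in the other quantifier for 5 of these genes, but not for Srsf11, which was at 9.71, 9.53 and 26.6 TPM there, with a ratio of −1.19 in place of −3.45. Srsf2, Srsf7 and Srsf9, at −3.79, −2.65 and −5.14, were at −6.11, −3.59 and −3.67 in the other quantifier. Retained_intron isoforms of SR genes were abundant, with Srsf5 at 105, 137 and 162 TPM, and NMD isoforms were lower than these in 8 of the 10 SR genes that have them (75.1% over all genes tested), Tra2a and Srsf4 being the exceptions.

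**Figure D5:**
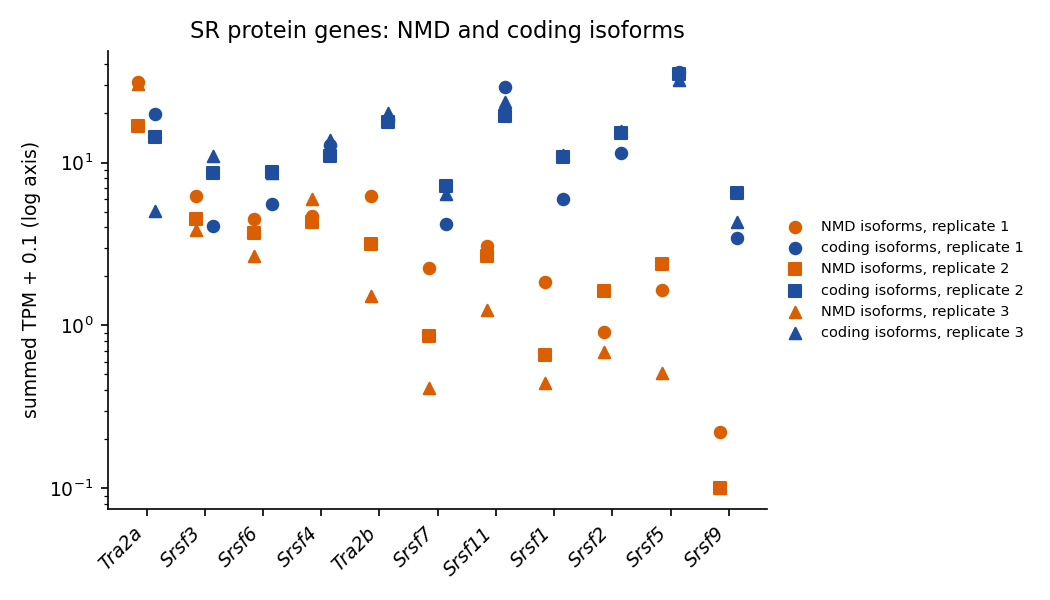
Summed TPM + 0.1 on a log axis of NMD (orange) and coding (blue) isoforms of the 11 SR protein genes, 1 symbol per library, ordered by their NMD over coding ratio. NMD lies above coding in every library in Tra2a, the symbols interleave in Srsf3, and the gap widens to Srsf9, whose NMD isoform had at most 0.120 TPM.

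The hnRNP proteins and other splicing regulators bind RNA or form the splicing machinery, and several regulate their own messages. Of 33 tested genes, NMD isoforms were higher in 5 (15.2%, against 4.14% of all tested genes) and lower in 20 (60.6%, against 77.4%), with a median log2 ratio of −1.60 ± 0.31 (SD, n = 3). In the other quantifier the count higher was 5 of 34 (14.7%, against 10.9% of all), which is closer to the share over all genes, and the median was −1.39 ± 0.29. Hnrnpa1, a repressor of splice sites that also regulates its own message, had 48.5, 35.6 and 45.5 TPM in 2 NMD isoforms and 2.07, 10.7 and 4.30 in coding isoforms, without overlap. Its log2 ratio was 3.20 ± 0.59 (SE, adjusted p = 0.0058, limma), 2.55 without replicate 1, 3.93 without replicate 2 and 2.17 in the other quantifier. Both isoforms include an extra exon of 76 nt near the 3′ end, and Hnrnpa1 has many processed pseudogenes that could share reads with its coding exons.

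Hnrnpll, which controls alternative splicing of the receptor gene Ptprc, had 27.9, 14.6 and 18.2 TPM in an NMD isoform with an extra exon of 83 nt that holds its stop codon, and 3.23, 4.01 and 3.12 in coding isoforms. NMD was higher in every library, with a log2 ratio of 2.47 ± 0.37 (SE, adjusted p = 0.0027, limma) and 2.82 in the other quantifier. Hnrnpu, a nuclear scaffold protein, had 34.8, 36.2 and 26.3 TPM against 8.01, 13.8 and 19.1, a ratio of 1.32 ± 0.42 (adjusted p = 0.035, limma). It was 0.93 without replicate 1 and 1.28 without replicate 2, neither called, and −0.20 when counts were not divided by length. Tial1 (1.14) and Clk1 (1.09), named after their values were seen, complete the 5 called higher, and Clk1, a kinase of SR proteins, was not called in the other quantifier (0.57). Ptbp3, of the polypyrimidine tract-binding family, was the lowest, with 0, 0.380 and 0 TPM in NMD isoforms and 28.2, 36.4 and 38.5 in coding isoforms, a ratio of −7.66. Its NMD isoforms had 6.37, 6.67 and 9.80 TPM in the other quantifier, with a ratio of −3.15.

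The factors that carry out NMD are known targets of their own pathway, but only 6 of the 27 listed genes have NMD isoforms beside coding ones and 5 could be tested. All 5 were called lower (against 77.4% of all tested genes), 1 of them with no NMD count in any library, and 0 higher by limma (0 at an unadjusted p under 0.05, against 4.14% of all called higher). The median log2 ratio was −4.48 ± 1.32 (−3.93 with the 1 gene at 0 set to its floor). In the other quantifier 3 of 5 were lower (66.5% of all) and the median was −1.12 ± 0.42. Smg1, the kinase that phosphorylates UPF1, had the most NMD RNA: 36.2, 33.7 and 30.9 TPM in an isoform that skips an exon, against 69.6, 80.8 and 103 in coding isoforms. The groups did not overlap, but the log2 ratio of −1.31 ± 0.32 (SE, adjusted p = 0.015, limma) lost its call without replicate 2 (−1.34, adjusted p = 0.051, limma), without replicate 3 (−1.10) and in the other quantifier (−0.68). Smg5, an adaptor for decay enzymes, had 2.70, 1.86 and 2.03 TPM against 6.84, 8.95 and 7.68, a ratio of −1.80 ± 0.33 (adjusted p = 0.0057, limma). Dcp1a, a decapping activator, had 0.430, 0.0900 and 0 TPM in NMD isoforms against 4.20, 5.98 and 7.13, but the other quantifier placed both classes level, at −0.05. Its ratio of −4.73 was −5.59 without replicate 1 and −4.01 without replicate 3. Pnn, a protein of the exon junction region, had no NMD count in any library in the expected-count tables. Its NMD isoform was at least 23.1-fold below its coding isoform at the floor, which covers counting error only. The upper bounds deposited for its TPM, at a level not stated, were 1.31, 1.85 and 1.30. It had 0.995, 0 and 0.290 TPM in the other quantifier (ratio −5.19).

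Genes of the interferon response, which TLR4 ligands induce through interferon beta, had NMD isoforms above coding isoforms in 5 of 21 tested genes (23.8%, against 4.14% of all) and below in 12 (57.1%, against 77.4%). The median was −1.65 ± 0.13 (SD, n = 3), and in the other quantifier, where 7 of 21 were higher (33.3%, against 10.9%), it was −0.30 ± 0.50. Besides Uba7, Mx1 (2.02 ± 0.30 (SE), adjusted p = 0.0027, limma) and Oasl2, the 5 included Ifi35 (1.08) and Tor3a (0.97), both interferon-induced and named after their values were seen. Coding isoforms of Mx1 held more TPM in the other quantifier, so the size of its ratio depends on the tables used, although it lay above 0 in both. Irf7, the transcription factor that amplifies interferon production, had 17.5, 23.6 and 33.1 TPM in coding isoforms and no count in its NMD isoform. That isoform was at least 252-fold lower at the floor in the expected-count tables, which covers counting error only. The upper bounds deposited for its TPM, at a level not stated, were 0.573, 0.566 and 0.468. The other quantifier gave that isoform at most 0.103 TPM, a ratio of −6.44. Herc6, a ligase for ISG15, had 48.6, 59.3 and 122 TPM in Herc6-203 against 35.4, 38.0 and 56.1, a ratio of 0.74 that was not called (adjusted p = 0.079, limma). In the other quantifier Herc6-203 was at 122, 99.1 and 230 TPM and the ratio of 2.13 was called higher (adjusted p = 0.0011, limma), and 44.8% of that isoform's exon bases lie in another gene.

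Of genes of TLR4 and NF-kB signalling, the pathway that lipid A engages, all 20 tested were called lower (100% against 77.4% of all). In 2 of them, Nfkb2 included, no NMD isoform had a count in any library, so that coding isoforms alone carried them past the filter, and the other 18 were all called lower (against 73.4% of all genes with an NMD count). The count higher by limma was 0, also at an unadjusted p under 0.05, and the median was −3.64 ± 0.32 (SD, n = 3), or −3.56 with the 2 genes at 0 set to the floor. In the other quantifier 16 of 21 were lower (66.5% of all) and 0 higher (10.9% of all), with a median of −2.37 ± 0.48. The gene nearest to level was Malt1, a paracaspase of NF-kB signalling, with 99.2, 91.7 and 113 TPM in 3 NMD isoforms against 175, 176 and 188 in coding isoforms. Its log2 ratio of −0.83 ± 0.29 (SE, adjusted p = 0.044, limma) lay between −0.78 and −0.88 when any 1 library was left out, and was called in none of these, and it was −0.02 in the other quantifier. Ikbkb, the kinase that marks NF-kB inhibitors for degradation, had 10.6, 12.7 and 13.1 TPM against 23.1, 29.1 and 23.9, a ratio of −1.06 ± 0.29 (adjusted p = 0.022, limma) that ranged from −0.99 to −1.15 and was not called when any 1 library was left out. Otulin, a deubiquitinase of linear chains, had −1.16 ± 0.36 (adjusted p = 0.033, limma), not called without replicate 1 (−1.26) or replicate 2 (−0.83). Both Ikbkb (−1.23) and Otulin (−1.57) were called lower in the other quantifier.

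Among ribosomal protein genes, NMD isoforms were lower in 9 of 16 tested genes (56.3%, against 77.4% of all) and higher in 1 (6.25%, against 4.14%), with a median of −2.50 ± 1.14 (SD, n = 3) that was lowest in replicate 2 (−3.80 against −1.67 and −2.02), the library with the highest ribosomal protein level. Rpl12 had 4.68, 18.7 and 5.11 TPM in its NMD isoform and 1.31, 8.43 and 0.870 in its coding isoform, both highest in replicate 2. Its ratio of 1.78 ± 0.37 (SE, adjusted p = 0.0088, limma) was called, and without division by length it was 0.80 and not called. Rpsa had 2.57, 18.2 and 2.70 TPM in NMD isoforms and 2.20 and 1.91 in coding isoforms of replicates 1 and 3, with coding also highest in replicate 2, and its ratio of 0.52 was not called (adjusted p = 0.18, limma). Rpl9 had no NMD count, against 15.0, 51.9 and 11.2 TPM in coding isoforms. Its NMD isoform was at least 29.6-fold lower at the floor, which covers counting error only. Ribosomal protein genes have many processed pseudogenes, which makes the division of their reads uncertain.

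Few genes had more NMD than retained_intron RNA. Ccdc167, a coiled-coil protein gene, led with 11.3, 18.7 and 25.5 TPM in NMD isoforms, 10.9, 15.5 and 19.4 in coding isoforms and no count in retained_intron isoforms, at least 137-fold at a floor of 3 counts per library in the expected-count tables. The other quantifier gave its retained_intron isoforms a mean of 0.567 TPM against 14.8 for NMD isoforms, a log2 ratio of 5.01 in place of 7.46. NMD and coding isoforms of Ccdc167 did not differ beyond the spread (log2 ratio 0.24 ± 0.29 (SE), adjusted p = 0.47, limma). Xrcc3, which acts in homologous recombination, and Grtp1 had at least 14.0-fold and 21.3-fold more NMD than retained_intron TPM by the same floor. The floor covers counting error only. Xrcc3 had an NMD over coding ratio of 0.79 that was not called (adjusted p = 0.30, limma) and 1.67, which was called, without replicate 2. In Plxna1, a semaphorin receptor, the excess over retained introns (5.03 ± 0.61, adjusted p = 0.0013, limma) was 0.36 in the other quantifier, and its most abundant NMD isoform lies wholly within exons of a gene on the opposite strand, which cannot be told apart without a known strand setting. Parts of the exons of Ccdc167, Xrcc3 and Grtp1 isoforms overlap genes on the opposite strand as well.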

How the data were processed

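RNA-seq libraries of the chromatin fraction of lipid A-treated macrophages were used as deposited. The authors deposited, per library, transcript and gene tables of expected counts (read totals shared out among features) and TPM, made from transcriptome alignments to mm10 with GENCODE M21 per the deposited note, and further transcript tables of estimated counts and TPM made from the reads, called the other quantifier. The aligner, both quantifiers, the strand setting and any trimming were not given in the sources used here. Entries other than annotated transcripts held 0.874%, 0.310% and 0.215% of expected counts and were left out. Expected counts were used unrounded, as filters only.

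Structures, stop codons and sequences came from the GENCODE M21 annotation and transcripts. TPM of each biotype were summed per gene, and log2((TPM + 0.1)/(TPM + 0.1)) was tested against 0 with limma 3.58.1 (R 4.3.3, intercept only, Benjamini-Hochberg, threshold 0.05) in genes with a mean summed count of at least 50. The fit was tested on simulated data in which few genes were shifted, unlike the real data. The Benjamini-Hochberg cut was therefore stricter there, and the shares recovered may be lower than in the real test. Shifts of 2 log2 units were recovered in 52% of shifted genes for NMD over coding and 34% for NMD over retained_intron. Shifts of 4 were recovered in 82% and 80%. A gene not called may still differ, but these shares do not measure how often. Ratios understate differences of low isoforms.

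The members, lists and tests were chosen with earlier results of these data known. Genes were named by rule: the 10 NMD isoforms with the highest mean TPM, the 10 highest and 6 lowest NMD over coding ratios and the 6 highest over retained_intron (called, same sign in every library and both quantifiers, mean count at least 100), every SR gene, and the 3 highest and 1 lowest of each other list. A few of these are not described. Floors are 3 expected counts per library, on the shortest isoform of the class, and cover counting error only. They do not cover how reads were divided among isoforms, so a fold of "at least" a value is a bound for counting error alone.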

Additional observations from a re-analysis of the deposited data

How the results depend on the processing

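No paired analysis was possible because the libraries form 1 group. NMD isoforms stayed below coding and below retained_intron isoforms at the median in every setting tried. The median NMD over coding log2 ratio of −2.81 was −1.82 with the other quantifier, −4.44 with counts not divided by length, −3.10 and −1.57 with 0.01 and 1 added in place of 0.1, −1.94 without and −2.49 with a filter of 10 counts, −2.41 with the highest isoform of each class and −1.94 in genes with at least 100 NMD-only bases. The median over retained_intron of −2.66 was, in the same order, −2.11, −3.15, −3.06, −1.52, −2.03 (no filter), −2.05 and −1.74. Genes higher than coding numbered 338 with the other quantifier and 66 of 877 with NMD-only bases (105 in the main analysis, 68 to 78 with 1 library left out), and genes lower 1266 of 1580 with a filter of 200 counts and 615 of 877 with NMD-only bases (1962, and 1802 to 1843 with 1 library left out). Genes higher than retained_intron (69) numbered 183 with the other quantifier, 180 with counts, and 44 to 55 with 1 library left out, and genes lower (1706) numbered 484 of 737 with NMD-only bases. The cause of these differences was not tested; with NMD-only bases and with a filter of 200 counts, fewer genes were tested and the shares called changed as well. The NMD share of NMD and coding TPM (20.7%) was 27.3% with the other quantifier, 13.7% for counts, 23.5% with the highest isoforms, 29.1% with NMD-only bases, 18.5% without isoforms that keep an intron, and 20.0% to 21.8% with 1 library left out. Of 774 values of 59 named genes under the alternatives, 719 kept their direction and side of the threshold, 36 lost the call, 12 gained it and 7 reversed: Srsf4 (0.88, other quantifier), Ddx5 (−9.49, without isoforms that keep an intron) and, with counts not divided by length, Hnrnpu (−0.20), Ccdc167 (−1.08), Grtp1 (−0.95), Zup1 (1.81) and Herc6 (−3.67), the cause of which was not tested. The 2816 members at 0 counts in every library cannot be called absent: in the other quantifier, 2021 members were at 0 in every library, and 508 of the 2816 were above 0 in all.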
